A study of Mus musculus with 8 samples.

Results

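The Schlafen genes of the mouse encode a family of intracellular proteins, and all 7 family genes followed here, Slfn1, Slfn2, Slfn3, Slfn4, Slfn5, Slfn8 and Slfn9, were taken by symbol from the deposited table of 25572 genes. They were measured in neutrophils sorted from PyMT-N tumours grown in C57/B6 mice, 4 libraries of CD54-positive (ICAM1-high) cells and 4 libraries of CD54-negative (ICAM1-low) cells, numbered 1, 2, 3 and 5 in each group. CD54 is another name of ICAM1, a surface protein by which leukocytes and other cells adhere to each other, and the cells were separated by its level with flow cytometry. The sources used here give no other treatment, time, age or sex, so both groups share the tumour and strain and differ by the gate. Whether the replicates are separate mice is not stated in the labels, so their spread, and every p-value drawn from it, may be technical. Each library was made from 150 pg of RNA and held 15940328 to 21825096 estimated counts, where 3 counts, the floor used for detection, equal 0.121 to 0.263 CPM (TMM-scaled counts relative to the library total). All 7 genes passed the low-count filter, as did 13575 genes in all. The family was selected on measured values of these same libraries, its levels in CD54-positive and CD54-negative cells, so the differences between the groups are given as a description of these libraries. How many members the fits across all genes called is stated beside the share or number of all genes called, and is not used as support.

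Schlafen genes take their name from the German word for sleep, after the growth arrest that Slfn1 caused in mouse thymocytes. The mouse proteins fall into short members (Slfn1 and Slfn2), members of intermediate length (Slfn3 and Slfn4) and long members that carry a helicase-like domain (Slfn5, Slfn8 and Slfn9), and many of the genes are induced by type I interferon. In mouse myeloid cells Slfn4 is known as a gene induced by toll-like receptor ligands and interferon, and it marks suppressive myeloid cells in the inflamed mouse stomach. Slfn2 is required for the quiescence of mouse T cells and monocytes. The genes lie side by side on mouse chromosome 11, in the order Slfn5, Slfn9, Slfn8, the pseudogene Slfn10-ps, Slfn2, Slfn1, Slfn4 and Slfn3 in the RefSeq annotation.

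The promoters of the 7 genes are shown first because 2 short letter patterns divide them. All sequences are from RefSeq on GRCm38.p6, read 5′ to 3′ on the strand of the gene. Windows of 300 bases, 250 before and 50 after each annotated start, were searched on both strands for AGGAAGT, a core bound by ETS family factors, for a pair of GAAA words with 2 bases of any kind between them, the core of an interferon-stimulated response element, and for TTCNNNGAA, the core of a gamma-activated sequence. The patterns were chosen after the promoters had been read. AGGAAGT was present in Slfn1, Slfn2, Slfn3 and Slfn4 and in 9.35% of 32851 promoters of the same length, and the paired GAAA pattern was present in Slfn5, Slfn8 and Slfn9 and in 3.44% of those promoters. None of the 7 genes held both patterns, and none held TTCNNNGAA, which was in 8.3% of all promoters. A match describes letters in this window and is not evidence of binding. The window of Slfn4, the most abundant member, is given whole (chr11:83174936-83175235, plus strand), with capitals on the AGGAAGT match, which lies on the opposite strand and starts 73 bases before the annotated start.
Slfn4: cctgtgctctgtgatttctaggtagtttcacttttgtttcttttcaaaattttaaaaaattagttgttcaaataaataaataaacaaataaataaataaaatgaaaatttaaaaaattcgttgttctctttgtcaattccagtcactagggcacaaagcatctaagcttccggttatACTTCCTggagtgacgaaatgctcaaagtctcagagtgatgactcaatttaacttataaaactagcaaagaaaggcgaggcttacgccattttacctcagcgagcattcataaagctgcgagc
The other genes with this pattern are given as windows around it, with the same capitals, from chr11:83116716-83116782 for Slfn1, chr11:83065027-83065093 for Slfn2 and chr11:83191241-83191307 for Slfn3, all on the plus strand. Slfn3 held the pattern on both strands, 59 and 42 bases before the start.
Slfn1: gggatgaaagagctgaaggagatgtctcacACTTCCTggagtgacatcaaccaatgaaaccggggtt
Slfn2: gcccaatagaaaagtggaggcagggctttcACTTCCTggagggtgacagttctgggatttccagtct
Slfn3: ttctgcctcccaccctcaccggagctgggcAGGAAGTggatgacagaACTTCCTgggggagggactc
Slfn1 and Slfn4 shared a run of 15 identical bases, the longest shared by any pair of the 7 windows apart from the 20 bases shared by Slfn8 and Slfn9. The long members are shown with capitals on the paired GAAA match, from chr11:82951917-82951986 on the plus strand for Slfn5, chr11:83020819-83020888 on the minus strand for Slfn8 and chr11:82991836-82991905 on the minus strand for Slfn9. In Slfn8 and Slfn9 the match lies on the strand opposite to the gene, 48 and 45 bases before the start, and a second annotated start of Slfn8 had it 136 bases before; in Slfn5 it lies 155 bases before the start.
Slfn5: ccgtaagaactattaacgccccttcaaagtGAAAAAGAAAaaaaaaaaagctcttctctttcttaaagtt
Slfn8: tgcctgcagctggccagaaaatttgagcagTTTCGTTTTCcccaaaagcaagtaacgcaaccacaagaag
Slfn9: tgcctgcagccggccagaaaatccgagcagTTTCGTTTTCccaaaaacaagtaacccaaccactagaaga

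Before the levels, 1 library has to be set apart. The library labelled CD54-negative replicate 5 correlated with the other CD54-negative libraries at r = 0.64 to 0.74 (log2(CPM + 1) across genes), while the other 3 correlated with each other at up to 0.87. Its mean r was 0.738 to the CD54-positive libraries and 0.706 to the other CD54-negative libraries, and it was the only library of the 8 whose mean r was higher to the other group. Icam1, the sorted marker, stood at 48.2, 58.4, 42.4 and 122 CPM in CD54-positive replicates 1, 2, 3 and 5, and at 18.7, 9.23, 4.31 and 138 CPM in CD54-negative replicates 1, 2, 3 and 5. In this library Icam1 mRNA was thus above every CD54-positive library. The label rests on a gate for the surface protein, so the mRNA level does not by itself contradict it. CD54-negative replicate 5 was the highest of the 8 libraries for 21.1% of all genes tested. Of the 7 Schlafen genes 5 were highest there, Slfn1, Slfn2, Slfn4, Slfn5 and Slfn8. Of 14 defining neutrophil genes, all but Ly6g, Mpo and Elane were above the 3-count floor in all 8 libraries. The floor is low, and Camp passed it at 0.387 CPM in CD54-positive replicate 5. Ly6g, which encodes the surface marker of mouse neutrophils, was at 0.0950, 3.99, 1.98 and 1.66 CPM in CD54-positive replicates 1, 2, 3 and 5, the first of these under the floor, and at 25.8 to 41.1 CPM in CD54-negative libraries. Mpo and Elane are granule genes of neutrophil precursors. Mpo was listed at 0 in all libraries but CD54-positive replicate 3, at 8.36 CPM, and Elane did not exceed 0.821 CPM in any library. The 14 genes summed to 1499 to 4398 CPM in CD54-positive and 6623 to 30995 CPM in CD54-negative libraries, the last value in replicate 5. In bulk samples, fewer cells of a type and less RNA per cell cannot be told apart.

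Slfn4 was lower in CD54-positive cells in every library, and it was the most abundant member per length of transcript in all 8. Slfn4 (ENSMUSG00000000204) stood at 426, 397, 291 and 405 CPM in CD54-positive replicates 1, 2, 3 and 5, and at 1142, 1941, 812 and 15267 CPM in CD54-negative replicates 1, 2, 3 and 5. The groups did not overlap, and the CD54-positive libraries lay close together while the CD54-negative libraries were widely spread. By CPM it ranked between 283 and 454 among all genes in the CD54-positive libraries, between 34 and 151 in CD54-negative replicates 1, 2 and 3, and at 3 in CD54-negative replicate 5. Slfn4 averaged 380 ± 60.2 CPM in CD54-positive and 4791 ± 7000 CPM in CD54-negative libraries (SD, n = 4 each), and the log2 fold change was -3.66 ± 0.93 (SE). The size of this difference rested on 1 library. Without CD54-negative replicate 5 the CD54-negative mean was 1298 ± 580 CPM (SD, n = 3), 3.42-fold that of the CD54-positive libraries, and the log2 fold change was -1.77 ± 0.40. The groups still did not overlap then.

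Slfn1, the short member first found to arrest thymocyte growth, followed Slfn4 in direction with a smaller difference. Its level was 65.6, 37.8, 28.4 and 41.6 CPM in CD54-positive replicates 1, 2, 3 and 5, and 79.1, 56.3, 52.7 and 543 CPM in CD54-negative replicates 1, 2, 3 and 5. CD54-positive replicate 1 lay within the range of the CD54-negative libraries and the other CD54-positive libraries lay below it. The log2 fold change was -2.08 ± 0.77 over all libraries and -0.54 ± 0.43 without CD54-negative replicate 5 (SE). In that library Slfn1 was 8.67-fold and Slfn4 11.8-fold the mean of the other CD54-negative libraries. Across the 8 libraries the log2 levels of Slfn1 and Slfn4 had r = 0.93, the highest of the 21 pairs of members, and r = 0.66 over the 7 libraries other than CD54-negative replicate 5.

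**Figure D1:**
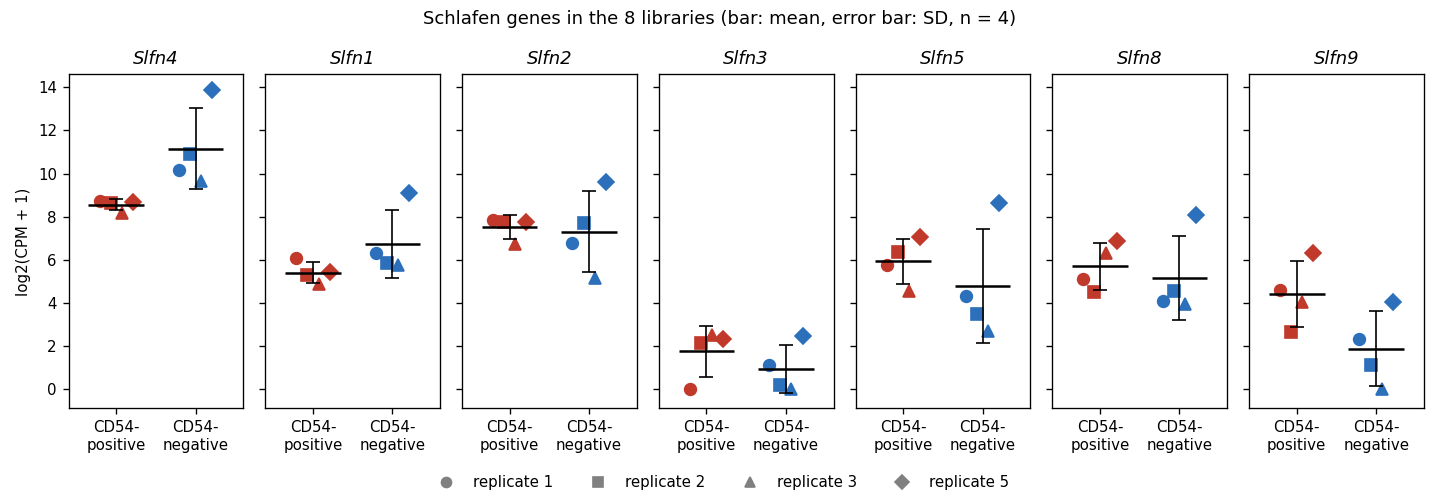
Level of each Schlafen gene as log2(CPM + 1) in the 4 CD54-positive (red) and 4 CD54-negative (blue) libraries, with a marker shape for each replicate number, the mean as a bar and the SD as an error bar. Slfn4 is lower in all CD54-positive libraries, and CD54-negative replicate 5 (blue diamond) lies above the other CD54-negative libraries for each gene.

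Slfn2, the quiescence gene of T cells and monocytes, showed no set direction. It stood at 230, 213, 104 and 216 CPM in CD54-positive replicates 1, 2, 3 and 5, and at 107, 207, 34.1 and 787 CPM in CD54-negative replicates 1, 2, 3 and 5. The groups overlapped, with and without CD54-negative replicate 5. The log2 fold change was -0.58 ± 0.77 with all libraries and 0.71 ± 0.57 without that library (SE), so the sign turned with it. Per kilobase Slfn2 was second to Slfn4 in all libraries but CD54-negative replicate 3, where Slfn1 was above it.

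The long members Slfn5, Slfn8 and Slfn9, which carry the helicase-like domain, had higher levels in CD54-positive cells than in CD54-negative replicates 1, 2 and 3, with the exception of Slfn8 in CD54-positive replicate 2. Slfn5 (ENSMUSG00000054404) stood at 52.4, 80.5, 22.7 and 132 CPM in CD54-positive replicates 1, 2, 3 and 5, and at 19.0, 10.2, 5.54 and 402 CPM in CD54-negative replicates 1, 2, 3 and 5. Slfn8 stood at 33.9, 21.3, 79.0 and 114 CPM in CD54-positive replicates 1, 2, 3 and 5, and at 15.9, 22.7, 14.4 and 268 CPM in CD54-negative replicates 1, 2, 3 and 5. In both genes CD54-negative replicate 5 was the highest of all libraries and the other CD54-negative libraries were low. Slfn9 stood at 22.9, 5.22, 15.7 and 79.2 CPM in CD54-positive replicates 1, 2, 3 and 5, and at 4.02, 1.19, 0 and 15.5 CPM in CD54-negative replicates 1, 2, 3 and 5. For Slfn9 CD54-negative replicate 5 lay inside the CD54-positive range, and CD54-positive replicate 5 was the highest library. With all libraries the log2 fold changes were -0.60 ± 1.15 for Slfn5, -0.37 ± 0.95 for Slfn8 and 2.58 ± 1.36 for Slfn9 (SE). Without CD54-negative replicate 5 they were 2.63 ± 0.69, 1.81 ± 0.62 and 4.10 ± 1.43, so Slfn5 and Slfn8 turned sign with that library. The fold change of Slfn9 is uncertain, since CD54-negative replicate 3 had no count.

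Slfn3, the intermediate-length neighbour of Slfn4, was close to the floor. It was at 0, 3.42, 4.64 and 4.03 CPM in CD54-positive replicates 1, 2, 3 and 5, and at 1.13, 0.12, 0 and 4.47 CPM in CD54-negative replicates 1, 2, 3 and 5. CD54-positive replicate 1 and CD54-negative replicates 2 and 3 were at or under 3 counts, so its fold change is uncertain, although it is plotted with the others and enters the medians over members. Of the other rows named for the family, the pseudogene Slfn10-ps reached 17.1 CPM in CD54-positive replicate 5 and 21.0 CPM in CD54-negative replicate 5, and lay between 0 and 5.33 CPM in the other 6 libraries. Slfn5os, an antisense neighbour of Slfn5, did not exceed 3 counts in any library.

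Reads of close relatives can be split between them by the quantification. In the GENCODE M21 transcripts, which are of another build than the authors' GRCm39, 15.3% of the distinct 31-base words of Slfn4 also occur in another Slfn gene, most of them in Slfn3. The share was 15.9% for Slfn3, 26.7% for Slfn8, 19.8% for Slfn9, 8.14% for Slfn2 and 1.96% for Slfn1, and no such word of Slfn5 occurs in another. The values of Slfn8, Slfn9 and Slfn10-ps, and those of the scarce Slfn3 beside the abundant Slfn4, are therefore less certain than those of Slfn5 and Slfn1.

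**Figure D2:**
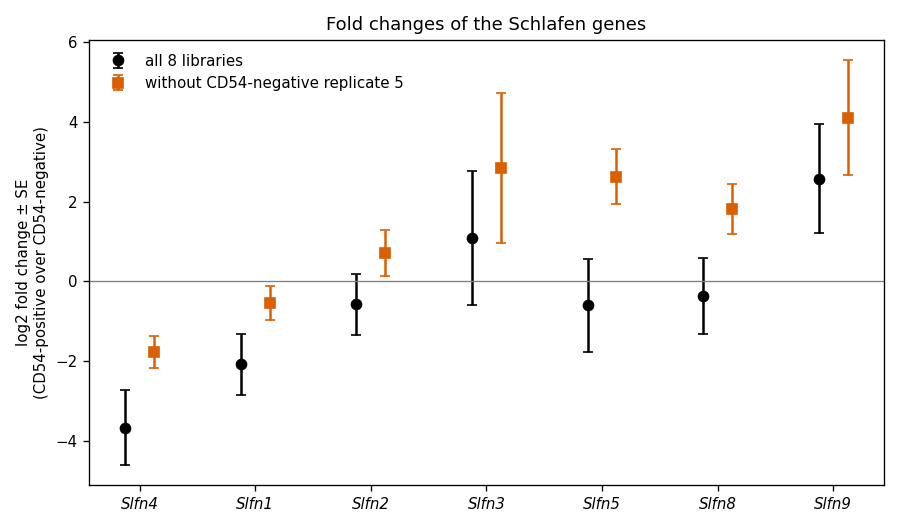
Log2 fold change (CD54-positive over CD54-negative) of each Schlafen gene with its standard error, from all 8 libraries (black) and without CD54-negative replicate 5 (orange). Slfn4 is negative in both, at -3.66 and -1.77, while Slfn5 is at -0.60 with all libraries and at 2.63 without that library.

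In the edgeR quasi-likelihood fit across all genes none of the 7 members was past a Benjamini-Hochberg adjusted p of 0.05, beside 1.5% of all 13575 genes tested. At an unadjusted p under 0.05 there were 2 members, Slfn4 and Slfn1, both lower, beside 8.96% of all genes in that direction. With limma-voom and sample weights 1 member, Slfn4, was lower past the adjusted threshold, beside 2.77% of all genes. DESeq2 called none of the 5 members for which it gave a p-value, beside 9.03% of all genes, with 1, Slfn9, higher at an unadjusted p under 0.05 beside 9.24%, and gave none for Slfn4 and Slfn1. Without CD54-negative replicate 5 Slfn4 alone was past the adjusted edgeR threshold, lower, beside 1.69% of all genes. Slfn4 was the sole member whose groups did not overlap, beside 3.89% of all genes that were lower in CD54-positive without overlap. Leaving CD54-negative replicate 5 out, Slfn4 was lower without overlap, beside 10.8% of all genes, and Slfn5 and Slfn9 were higher without overlap, beside 11.5%. The contrast was in view when the family was picked, so nothing is read from these counts. The median log2 fold change of the 7 members was -0.58 with all libraries and 1.81 without CD54-negative replicate 5, beside -0.07 and 0.06 for all genes tested.

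Within each library the make-up of the family separated the groups, including CD54-negative replicate 5. This comparison uses CPM per kilobase of gene length and does not depend on the scaling between libraries. Slfn4 made up 47.4, 49.1, 53.4 and 43.7% of the family in CD54-positive replicates 1, 2, 3 and 5, and 80.3, 83.1, 86.3 and 87.5% in CD54-negative replicates 1, 2, 3 and 5. The groups lay far apart, and CD54-negative replicate 5 was beside the other CD54-negative libraries although its Slfn4 level was 7.87-fold that of the next highest library. The long members Slfn5, Slfn8 and Slfn9 together made up 5.28, 5.43, 10.7 and 15.5% in CD54-positive replicates 1, 2, 3 and 5, and 1.23, 0.723, 1.07 and 1.75% in CD54-negative replicates 1, 2, 3 and 5. The short members Slfn1 and Slfn2 together took 34.8 to 47.3% in CD54-positive and 10.7 to 18.3% in CD54-negative libraries. None of these ranges overlapped between the groups. Taken alone, Slfn2 had 28.0 to 38.8% in CD54-positive and 5.35 to 13.1% in CD54-negative libraries. The share of Slfn1 alone did overlap, at 5.79 to 9.43% and 3.11 to 7.23%, and so did that of Slfn3. How often the shares within other gene families separate the groups was not examined, and the family was chosen on these same values. Since the shares sum to the whole, a larger share of Slfn4 lowers those of the others. The shares are thus not separate results, and they do not follow the levels. Slfn1 averaged 43.4 ± 15.9 CPM in CD54-positive libraries (SD, n = 4) and 62.7 ± 14.3 CPM in CD54-negative replicates 1, 2 and 3 (SD, n = 3). Per kilobase the ratio of Slfn4 to Slfn2 was 1.42 ± 0.320 in CD54-positive libraries and 10.7 ± 4.71 in CD54-negative libraries (SD, n = 4 each). The ratio of Slfn4 to Slfn5 was 8.24 to 34.5 in CD54-positive and 102 to 513 in CD54-negative libraries. On the log2 scale the fold change of Slfn4 minus the median of its 6 relatives was -3.18 with all libraries and -3.99 without CD54-negative replicate 5.

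**Figure D3:**
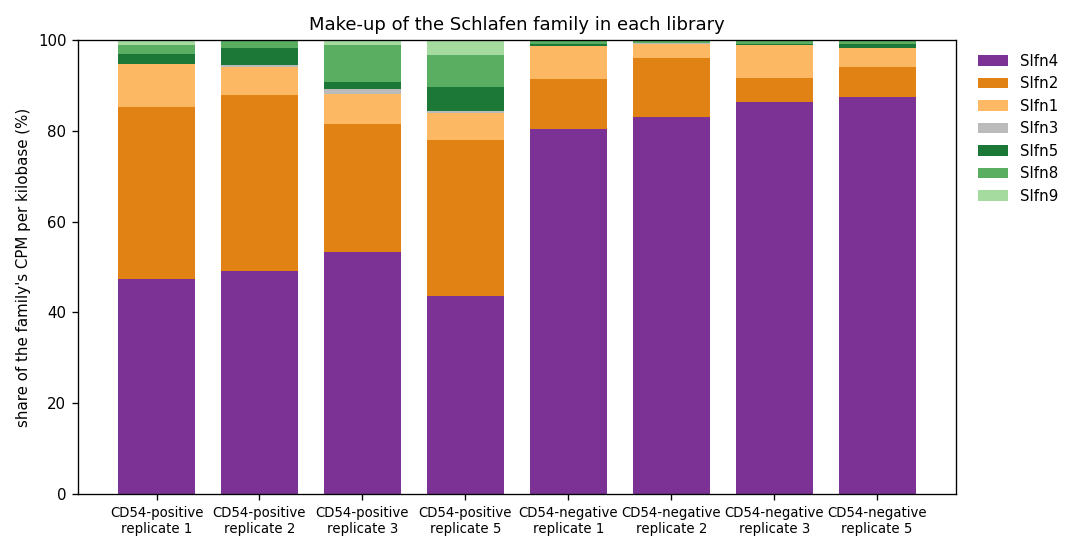
Share of each Schlafen gene in the family's CPM per kilobase (%), for the 4 CD54-positive and then the 4 CD54-negative libraries. Slfn4 (purple) takes 43.7 to 53.4% in CD54-positive and 80.3 to 87.5% in CD54-negative libraries, where Slfn2 (orange) and the long members (greens) are small.

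CD54-negative replicate 5 stood above the other CD54-negative libraries by unequal factors. Against the mean of CD54-negative replicates 1, 2 and 3, the level in this library was 34.8-fold for Slfn5, 15.2-fold for Slfn8, 11.8-fold for Slfn4, 8.67-fold for Slfn1 and 6.78-fold for Slfn2. By the same ratio with 1 CPM added to each side, Slfn5 ranked at 16, Slfn8 at 109 and Slfn4 at 160 among the 13575 genes tested. These ratios were made on a scale that lifts this library, whose TMM factor was 0.72 against 0.96 to 1.17 in the others. With library sizes alone Slfn4 stood at 10919 CPM there, against 774 to 1911 CPM in the other CD54-negative libraries.

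Interferon-stimulated genes, a class to which many Schlafen genes belong in the mouse, were followed as a list of 25 genes, of which 24 were in the table and tested. Their sum was 1995, 1684, 1366 and 3392 CPM in CD54-positive replicates 1, 2, 3 and 5, and 925, 894, 576 and 10347 CPM in CD54-negative replicates 1, 2, 3 and 5. As with Slfn5, CD54-negative replicate 5 was the highest library and the other CD54-negative libraries were the lowest. None of the 24 genes was past the edgeR threshold, beside 1.5% of all genes, and 3 were at an unadjusted p under 0.05, all higher, beside 7.96% of all genes. These were the antiviral GTPase genes Mx1 and Mx2 and the interferon-induced gene Ifi44. DESeq2 and limma-voom each called these 3 genes, all higher, beside 4.3% and 3.54% of all genes. Mx1 averaged 210 ± 37.4 CPM in CD54-positive and 18.7 ± 18.3 CPM in CD54-negative libraries (SD, n = 4 each), with a difference of 3.49 ± 0.87 on the log2 scale (SE; edgeR adjusted p = 0.0729), and its groups did not overlap, beside 7.51% of all genes that were higher in CD54-positive without overlap. On that scale Mx2 had 3.68 ± 1.45 (edgeR adjusted p = 0.230) and Ifi44 had 2.98 ± 0.92 (edgeR adjusted p = 0.141). Oasl2, a member of the oligoadenylate synthetase family, had -1.895 ± 0.90 (edgeR adjusted p = 0.315). Without CD54-negative replicate 5, 4 genes of the list were called higher and none lower, beside 2.36% of all genes called higher. These were Mx1, Ifit3, Irf7 and Ifih1 (edgeR adjusted p = 0.0350 to 0.0485). Of the 24, 11 had a positive log2 fold change with all libraries, beside 47.7% of all genes, and 23 without that library, beside 52.5%. The list's median was -0.33 with all libraries and 1.92 without it. In CD54-negative replicate 5 itself, 19 of the 24 genes were at their highest, beside 21.1% of all genes, and Mx1, Mx2, Ifi44, Bst2 and Xaf1 were not.

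**Figure D4:**
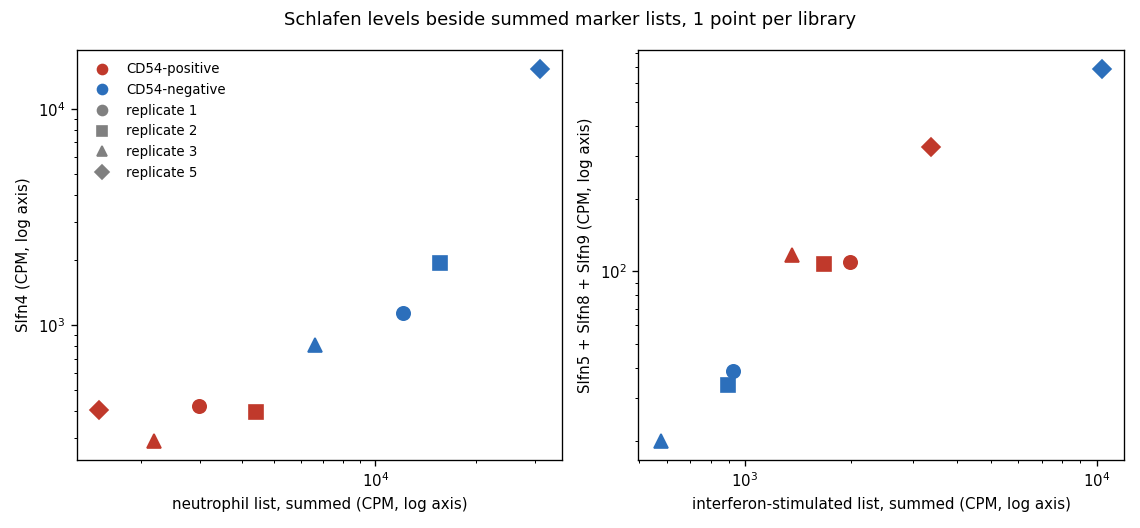
Each point is a library, CD54-positive in red and CD54-negative in blue, with a marker shape for each replicate number and all axes in CPM on a log scale. Left, Slfn4 against the sum of 14 neutrophil genes, with CD54-positive libraries at 291 to 426 CPM of Slfn4 and CD54-negative libraries at 812 to 15267 CPM. Right, the sum of Slfn5, Slfn8 and Slfn9 against the sum of 24 interferon-stimulated genes, both highest in CD54-negative replicate 5 and lowest in the other CD54-negative libraries.

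Summed over Slfn5, Slfn8 and Slfn9, the level was 107 to 325 CPM in CD54-positive libraries, 19.9 to 38.9 CPM in CD54-negative replicates 1, 2 and 3, and 686 CPM in CD54-negative replicate 5. By this sum the libraries stood in the same order as by the interferon-stimulated list, except for CD54-positive replicate 3. Slfn4 and the neutrophil genes both put the CD54-negative libraries in the order 5, 2, 1 and 3 from the highest down, above all CD54-positive libraries. These are descriptions over 8 libraries that share their scaling.

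Genes of interferon signalling gave 1 edgeR call among 14, higher in CD54-positive cells, beside 1.22% of all genes. Irf8, a transcription factor of the monocyte and dendritic cell lineages, rose to 421 ± 131 CPM in CD54-positive libraries, against 31.9 ± 15.0 CPM in CD54-negative libraries (SD, n = 4 each; log2 fold change 3.72 ± 0.55 SE; edgeR adjusted p = 0.0125). Its value in CD54-negative replicate 5 was the lowest of the 8, at 10.4 CPM. On the log2 scale the difference was 0.73 ± 0.42 for the receptor gene Ifnar1 (edgeR adjusted p = 0.402), -1.43 ± 0.59 for the kinase gene Jak2 (edgeR adjusted p = 0.246) and -1.25 ± 0.50 for the transcription factor gene Irf1 (edgeR adjusted p = 0.235). The median of the 14 was 0.34, beside -0.07 for all genes.

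Toll-like receptors, whose ligands induce Slfn4 in mouse macrophages, and genes of their response gave no edgeR call among the 13 tested, and DESeq2 and limma-voom each called 1, Tlr7, higher. Over all genes the shares were 1.5% for edgeR, and 4.3% and 3.54% called higher by DESeq2 and limma-voom. At an unadjusted p under 0.05 there were 4, beside 7.96% of all genes higher and 8.96% lower, the receptor genes Tlr7 and Tlr9 higher and the inflammatory genes Il1b and Ptgs2 lower. Tlr7 stood at 47.4 ± 17.8 CPM in CD54-positive and 6.71 ± 3.76 CPM in CD54-negative libraries (SD, n = 4 each; edgeR adjusted p = 0.0530), and without CD54-negative replicate 5 it was past the threshold (edgeR adjusted p = 0.0376). Il1b, the interleukin-1 beta gene, was at 1424 to 2513 CPM in CD54-positive libraries, at 1648 to 3037 CPM in CD54-negative replicates 1, 2 and 3, and at 18048 CPM in CD54-negative replicate 5. Ptgs2, which encodes the inducible cyclooxygenase, was at 279 to 412 CPM in CD54-positive libraries, at 203 to 516 CPM in CD54-negative replicates 1, 2 and 3, and at 4944 CPM in CD54-negative replicate 5. Both were thus highest in the library in which Slfn4 was, as were 10 of the 13 tested genes of the list and 21.1% of all genes. Without that library their log2 fold changes were -0.36 for Il1b and 0.02 for Ptgs2. The summed list was 2812 to 4666 CPM in CD54-positive libraries and 2944 to 26917 CPM in CD54-negative libraries.

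Since some Schlafen proteins cut or protect transfer RNA, 9 genes of RNA-degrading and tRNA-related enzymes were looked at as well. None was past the edgeR threshold, and none was at an unadjusted p under 0.05, and neither DESeq2 nor limma-voom called any. Over all genes edgeR called 1.5% and DESeq2 9.03%, so a count of 0 among 9 genes is close to the background. Zc3h12a, an mRNA-degrading nuclease, had -1.10 ± 0.63 on the log2 scale (SE; edgeR adjusted p = 0.405). Trmt2a and Elac2, which act on tRNA, had 0.98 ± 0.50 and 0.97 ± 0.82 (edgeR adjusted p = 0.350 and 0.583).

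The genes whose levels most resembled those of the members were searched among 8729 genes by Pearson's r of log2(CPM + 1) over the 8 libraries. For Slfn4 they were Cdkn1b, an inhibitor of cell cycle kinases (r = 0.992), Csf3r, the receptor of granulocyte colony-stimulating factor (0.985), Grina (0.983), Irf1 (0.982) and Mxd1, a MYC antagonist (0.981). Over the 7 libraries other than CD54-negative replicate 5 these r values were 0.983, 0.941, 0.938, 0.924 and 0.935. Csf3r stood at 590, 730, 405 and 381 CPM in CD54-positive replicates 1, 2, 3 and 5, and at 1232, 1816, 1001 and 9450 CPM in CD54-negative replicates 1, 2, 3 and 5. Like Slfn4, Csf3r was lower in each CD54-positive library than in any CD54-negative one, beside 3.89% of all genes. It was picked for its likeness to Slfn4 in these same libraries, so nothing is read from this. Among the closest were Nfil3 for Slfn1 (0.980), for Slfn2 Rnf31 (0.984) and Rnf34 (0.983), and for Slfn3 Specc1 (0.963) and Txnl4a (0.954). Slfn5 was closest to 9930111J21Rik2 (0.985) and Tor1aip1 (0.976), Slfn8 to the receptor gene Tlr1 (0.970) and to Rtn4 (0.966), and Slfn9 to Plau, the urokinase gene (0.970), and to the properdin gene Cfp (0.965). These are the highest of many r values, and all points share the scaling and CD54-negative replicate 5.

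Markers of other leukocytes moved with the groups beside the Schlafen genes. The 13 macrophage genes summed to 5693 to 16284 CPM in CD54-positive and 811 to 1172 CPM in CD54-negative libraries, with 10 of 13 called higher by edgeR beside 1.22% of all genes, and none of them was at its highest in CD54-negative replicate 5. Of the 12 tested neutrophil genes 6 were called lower and none higher, beside 0.273% of all genes lower. In CD54-positive replicates 1, 2, 3 and 5 the neutrophil list summed to 2988, 4398, 2181 and 1499 CPM. That was below the macrophage list, at 8831, 5693, 5843 and 16284 CPM, while in CD54-negative libraries the neutrophil list was above it. Sums of different lists depend on the genes chosen. T and NK cell markers summed to 79.7 to 328 CPM in CD54-positive and 2.11 to 42.5 CPM in CD54-negative libraries, with 1 of 8 called, Cd4, higher. The 6 tested B cell markers gave no edgeR call, 2 at an unadjusted p under 0.05, 1 DESeq2 call and no limma-voom call, with summed levels of 274 to 2056 CPM and 46.6 to 414 CPM in CD54-positive and CD54-negative libraries. Among 9 tested dendritic cell markers, all 9 with a positive log2 fold change, edgeR called 5 higher. Among 8 monocyte markers, 3 with a positive log2 fold change, it called 3 higher and 1 lower. Fibroblast, epithelial, endothelial and mast cell, basophil and eosinophil markers gave no edgeR call, with 1 marker of each list at an unadjusted p under 0.05, while DESeq2 called Cdh1 and Kit and limma-voom Col3a1 and Kit. The fibroblast list summed to 447 to 1929 CPM in CD54-positive and 1593 to 2563 CPM in CD54-negative libraries. In each CD54-negative library that was above the macrophage list, and in each CD54-positive library below it. Of the erythroid and platelet markers Pf4 was called higher by edgeR. The part of these cell types in the levels of the Schlafen genes was not tested.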

How the data were processed

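RNA was measured by sequencing in 8 libraries, each from 150 pg of total RNA. The deposited values are estimated counts per gene, which the authors made with Trim Galore 0.6.6 and Salmon 1.9.0 on GRCm39 (mm39), per the submitters' processing notes; the sources used here name no annotation or settings. Gene lengths in bases, per the file headers, are another deposited column. Of 25669 rows, repeated identifiers (88) were kept once, leaving 25572, and symbols were completed from a reference table (25343 identifiers matched, 6495 symbols replaced).

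Estimated counts were rounded, filtered with filterByExpr (13575 genes), scaled by TMM and compared with edgeR 4.0.16 in R 4.3.3 (glmQLFit and glmQLFTest, robust, group as the only term, Benjamini-Hochberg adjusted p under 0.05). CPM use TMM-adjusted library sizes, and CPM per kilobase divides by the deposited length. Standard errors were taken as the log2 fold change over the square root of F. Levels are mean ± SD over libraries. Totals of 15940328 to 21825096 counts came from very little RNA, with no molecular identifiers mentioned, so counts need not equal molecules; floors cover counting error only. The fit was tested on simulated data.

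Members, lists and the rule for named genes were chosen with earlier results of these data known. Named are all members, other Slfn rows, Icam1, from each pathway list at most 4 genes, by p, and the genes closest to each member (mean of 10 CPM or more, no predicted genes or pseudogenes); a few others are named beside a small count, after their values were seen, and some genes that the rule names are not reported here. Of the cell type lists, counts and sums are given, with some genes named or their levels shown beside them. Settings were varied by scaling (RLE, upper quartile, none), by tool (DESeq2 1.42.0, or voom in limma 3.58.1 with sample weights) and by no filter, a filter of 10 CPM in 4 libraries, a replicate term and leaving out libraries.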

Additional observations from a re-analysis of the deposited data

Results flagged for a closer look

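A library was marked where its gap to the nearest of the other 3 libraries exceeded Dixon's critical value for 4 samples. The gap was taken as a share of the group's range. Chance does this in about 1 in 20 groups of normally distributed values. The values used were CPM, or percent for the share of Slfn4, and not log values, so that rate need not hold here. In all, 26 groups of values were examined and 8 were marked. Of these, 7 were the library labelled CD54-negative replicate 5: Slfn4 at 15267 CPM, Slfn1 at 543 CPM, Slfn5 at 402 CPM, Slfn8 at 268 CPM, Slfn10-ps at 21.0 CPM, the summed interferon-stimulated list at 10347 CPM and the summed toll-like receptor response list at 26917 CPM. These values come from the same library and are not independent of each other. The remaining one was Slfn2 in CD54-positive replicate 3, low at 104 CPM against 213 to 230 CPM in the other CD54-positive libraries. Slfn2, Slfn3 and Slfn9 were not marked in CD54-negative replicate 5, nor was the share of Slfn4 in the family.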

How the results depend on the processing

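Of the 13575 genes tested, 203 were called with all libraries, and of the same genes DESeq2 called 1226 and limma-voom 856. The test with no filter called 365 of 25565 genes, and the test without both replicates numbered 5 called 409 of 13778. Leaving out 1 library at a time tested 14063 to 14288 genes. It gave 4 calls (without CD54-negative replicate 1) to 578 (without CD54-negative replicate 5). There were 43, 58, 80 and 58 calls without CD54-positive replicates 1, 2, 3 and 5, and 76 without CD54-negative replicate 2. Of the Schlafen genes 1, Slfn4, was called lower by limma-voom, beside 2.77% of all genes, and with no filter, beside 120 of 25565 genes. When 1 library was left out 0 to 1 was called, the 1 being Slfn4 without CD54-negative replicate 5, beside 1.69% of all genes lower. Interferon-stimulated genes gave 1 call with library sizes only and 1 with no filter, both higher, beside 258 of 13575 and 245 of 25565 genes. They gave 3 calls with DESeq2 and 3 with limma-voom, all higher, beside 4.3% and 3.54% of all genes. When 1 library was left out they gave 0 to 4, the 4 being without CD54-negative replicate 5, beside 2.36% of all genes higher. The log2 fold change of Slfn4 was -2.14 with limma-voom, -1.79 without both replicates numbered 5, and -4.00 to -1.77 when 1 library was left out, and was negative in all 17 alternatives. Slfn1 and Slfn9 also kept their sign in all 17, while Slfn2 and Slfn5 took the opposite sign in 4 and Slfn8 in 5, namely with limma-voom, with the replicate term, without CD54-negative replicate 5, without both replicates numbered 5 and, for Slfn8, with library sizes only. The cause was not tested. Slfn4 minus the median of its relatives stayed between -3.99 and -2.94. The median of all genes was -0.07 with TMM and 0.17 with library sizes only. Between these settings the log2 fold change of Slfn4 was -3.18 with library sizes only and -3.66 with TMM, a larger shift than that of the median.

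Replicates of the same number in both groups had deviations that correlated at r = -0.18, 0.11, 0.17 and 0.37 for numbers 1, 2, 3 and 5. Numbers 2, 3 and 5 correlated best with their own number, and number 1 with number 3. Pairing was to be used only if every number exceeded 0.1, so the main fit has no replicate term. The labels do not say whether a shared number marks a shared mouse. With the replicate number as a block there were 541 calls among 13575 genes, 2 of them interferon-stimulated genes and none a Schlafen gene. Slfn4 then had a log2 fold change of -2.47.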
